A study of Mus musculus with 6 samples.

Results

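The Ikaros family consists of 5 zinc finger transcription factor genes: Ikzf1 (Ikaros), Ikzf2 (Helios), Ikzf3 (Aiolos), Ikzf4 (Eos) and Ikzf5 (Pegasus). They were taken by symbol from the deposited gene table, and are 5 of its 38216 symbols and 5 of the 13311 genes tested. The RNA came from splenic CD4+ T cells of unchallenged C57BL/6 mice at postnatal day 28. All mice, those behind the controls included, carried the IL21-VFP reporter, which makes cells that transcribe the cytokine gene Il21 fluoresce. The cells were sorted on VFP and on ICOS, a receptor of the CD28 family found on activated T cells. The N pool had neither marker, the ACT pool had ICOS without VFP, and the ACT IL21 pool had both, with 2 libraries each. The sources used here give neither the number of mice behind a library nor the copy number of the reporter. No label states whether a pool's 2 libraries were separate animals, so the p-values measure the spread between libraries, which may be technical. Values are TPM, relative transcript abundances that are corrected for transcript length and scaled to the same total in each library, and the read depth behind them is unknown.

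Ikaros family proteins bind DNA through zinc fingers near the amino end and pair with each other through a second group of fingers near the carboxyl end. They act mostly by bringing chromatin complexes, among them the NuRD remodeling and deacetylase complex, to their target genes. Ikaros and Aiolos are general lymphocyte factors, Helios and Eos are best known from regulatory T cells, and Pegasus is the most divergent member. Helios is also found in other T cells, activated and innate-like ones included.

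The family's relatedness is shown here by a 90-base coding stretch, since both how alike and how separable the 5 genes are bear on their measured levels. Of the in-frame stretches that lie in 1 exon of every gene, it shared the most bases with Ikzf1, summed over the other members. Stretches across exon borders were not searched. The stretch is printed for Ikzf1, Ikzf2 and Ikzf5, and leaves out Ikzf3 and Ikzf4, which are nearer to Ikzf1 in it than Ikzf2 is. It lies in the part that encodes the carboxyl-terminal fingers through which the proteins pair. The sequences were read 5′ to 3′ in the coding sense from the GENCODE M21 transcripts (GRCm38), and capitals in Ikzf2 and Ikzf5 mark bases identical to Ikzf1 at the same place.
Ikzf1: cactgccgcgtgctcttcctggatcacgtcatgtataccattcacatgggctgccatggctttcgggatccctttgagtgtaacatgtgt
Ikzf2: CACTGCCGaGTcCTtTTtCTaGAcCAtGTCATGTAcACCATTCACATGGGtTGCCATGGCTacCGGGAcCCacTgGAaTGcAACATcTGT
Ikzf5: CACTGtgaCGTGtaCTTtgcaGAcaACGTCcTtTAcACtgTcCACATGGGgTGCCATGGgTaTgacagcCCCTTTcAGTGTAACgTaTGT

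The stretch lies in exon 9 of Ikzf1 (chr11:11769417-11769506, plus strand), and on the minus strand in exon 8 of Ikzf2 (chr1:69538837-69538926) and exon 4 of Ikzf5 (chr7:131391706-131391795). Of its 90 bases, Ikzf2 shares 72 with Ikzf1 and Ikzf5 shares 61, while Ikzf3 shares 77 and Ikzf4 shares 76. Even here these genes differ at many scattered bases. In global alignments of the coding sequences, identity between pairs of members ranged from 60.1% (Ikzf3 and Ikzf5) to 68.6% (Ikzf1 and Ikzf2). It was counted over the aligned bases only, with gaps left out. No run of 50 bases was common to the annotated transcripts of any pair. Only the longest run of each pair was sought. For Ikzf1 and Ikzf3 it had 26 bases and was coding. For Ikzf2 and Ikzf4 it was a repeat of 32 bases outside the coding sequence, so their longest coding run is not known. Exons of Ikzf2, Ikzf4 and Ikzf5 overlap genes on the opposite strand (Gm29114, Gm26876, and Gm44624 with Pstk). The strand setting of the counting is unknown, so reads from these partners cannot be told apart from those of the 3 members.

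The libraries carried the markers of CD4+ T cells. The 11 core T cell genes summed to between 4563 and 6511 TPM in every library, and Cd8a and Cd8b1 summed to between 3.41 and 27.0 TPM. The 10 B cell genes summed to 3.18 to 5.86 TPM in N, 20.4 to 22.0 in ACT and 21.2 to 26.0 in ACT IL21. Of 3 of them tested, Cd74 rose in ACT against N (2.26, limma adjusted p = 0.0119) and Cd22 in ACT IL21 against N (3.96, 0.00344), both named after their values were seen, while Pax5 and Blk were listed at 0 in all 6 libraries. The part of such cells in the levels of the family was not tested. The number of genes that reached 1 TPM ranged from 12095 to 12396 over the libraries. The 13 follicular helper genes summed to 1557 to 1676 TPM in ACT IL21 and to 608 to 781 in the other pools, and the 10 genes of naive T cells to 5117 to 5396 in N and 2250.0 to 2716 elsewhere. The summed markers of natural killer and NKT cells and of gamma delta T cells were far higher in ACT than in the other pools, and are given further below. In such bulk samples, a smaller number of cells of a type and less RNA per cell cannot be told apart.

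The family's make-up differed between the pools. Ikzf1 made up 74.9% and 72.9% of the 5 genes' summed TPM in the N libraries, 43.5% and 38.7% in ACT, and 56.4% and 56.2% in ACT IL21. Ikzf3 held 16.0% and 16.8% in N, 32.8% and 33.95% in ACT, and 25.8% and 24.8% in ACT IL21. Ikzf2 went from 2.58% and 4.05% in N to 17.5% and 22.7% in ACT and stood at 11.7% and 12.5% in ACT IL21. For each of these 3 genes the share in ACT IL21 lay between those of the other pools, without overlap. The summed level was 730 and 712 TPM in N, 992 and 931 in ACT, and 728 and 719 in ACT IL21, so that N and ACT IL21 overlapped in total and differed in make-up.

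**Figure D1:**
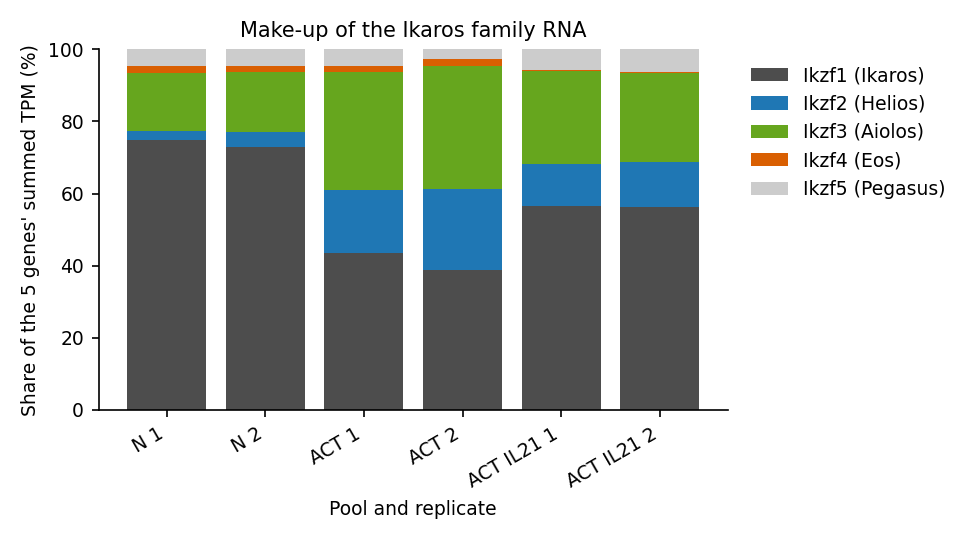
Share of each Ikaros family gene in the summed TPM of the 5 genes (vertical axis, percent) for each of the 6 libraries (horizontal axis, pool and replicate). Ikzf1 holds 72.9% or more in N and 43.5% or less in ACT, where Ikzf2 and Ikzf3 take larger shares, and ACT IL21 lies between.

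The order of the levels within a pool differed as well. In N it ran, by mean TPM, Ikzf1, Ikzf3, Ikzf5, Ikzf2 and Ikzf4. In ACT and in ACT IL21, Ikzf2 stood above Ikzf5 and the order was otherwise the same. Neighbours in each order did not overlap between their 2 libraries. Among all genes tested, Ikzf1 was above 97.7% or more of them in every pool. Ikzf2 was above 62.4% of the genes in N, 95% in ACT and 87.2% in ACT IL21, and Ikzf4 above 46.2%, 53.6% and 17.4%.

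Ikzf1 (chromosome 11, 11685003 to 11772926, GRCm38, plus strand, protein-coding) encodes Ikaros, the founding member and a regulator of lymphocyte development. It was at 547 and 519 TPM in N, 431 and 360.2 in ACT, and 410.4 and 404 in ACT IL21. Both N libraries were above all others, while ACT and ACT IL21 overlapped. How many of all genes tested separate between pools in this way was not counted, here or for the other members. The mean was 533 ± 19.6 TPM in N, 396 ± 50.4 in ACT and 407 ± 4.48 in ACT IL21 (SD, n = 2). By limma on log2(TPM + 1), the change from N was -0.43 ± 0.14 SE in ACT (95% confidence interval -0.76 to -0.11, adjusted p = 0.141) and -0.39 in ACT IL21 (-0.71 to -0.06, adjusted p = 0.193). Neither passed the threshold of 0.05 after adjustment over the 13311 genes, although the unadjusted p was 0.0158 and 0.0261. Between ACT IL21 and ACT the difference was 0.05 (-0.28 to 0.37, adjusted p = 0.914).

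Ikzf3 (chromosome 11, 98464902 to 98546031, minus strand, protein-coding) encodes Aiolos, a close partner of Ikaros in mature lymphocytes. It was at 117 and 119.7 TPM in N, 325 and 316 in ACT, and 188 and 178 in ACT IL21. The 3 pools did not overlap, with ACT highest and N lowest, and libraries of a pool lay close together (118 ± 1.92, 320.5 ± 6.505 and 183 ± 6.69 TPM). Ikzf3 rose by 1.43 ± 0.13 SE on the log2 scale in ACT against N (limma adjusted p = 0.000914), and kept this call with each library left out (adjusted p 0.00926 to 0.0218). It rose by 0.62 in ACT IL21 against N (adjusted p = 0.0373), and fell by 0.81 in ACT IL21 against ACT (adjusted p = 0.0255). The call against N in ACT IL21 ended without any single N or ACT IL21 library (adjusted p 0.19 to 0.221) and after rescaling (0.0804 and 0.09). The call against ACT ended with any of the 6 libraries left out (0.0791 to 0.225). The ratio of Ikzf1 to Ikzf3 was 4.68 and 4.34 in N, 1.33 and 1.14 in ACT, and 2.19 and 2.27 in ACT IL21.

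Ikzf2 (chromosome 1, 69531214 to 69687245, minus strand, protein-coding) encodes Helios, a factor of regulatory T cells that activated and innate-like T cells also make. It was at 18.85 and 28.8 TPM in N, 173 and 211 in ACT, and 85.1 and 90.2 in ACT IL21. The 3 pools did not overlap, and ACT was highest. The mean was 23.8 ± 7.05 TPM in N, 192 ± 26.8 in ACT and 87.7 ± 3.65 in ACT IL21 (SD, n = 2). Ikzf2 rose by 2.98 ± 0.23 SE in ACT against N (limma adjusted p = 0.000398), a change larger in size than that of 99.0% of the genes tested. This call held with each library left out (adjusted p 0.00309 to 0.0113). It rose by 1.87 ± 0.23 in ACT IL21 against N (adjusted p = 0.0041), and this call ended without ACT IL21 replicate 1 (adjusted p = 0.082) or replicate 2 (0.0912). The difference of ACT IL21 from ACT was -1.12 (95% confidence interval -1.64 to -0.59), which missed the threshold (limma adjusted p = 0.0556). It also missed it under 7 of 9 alternative settings, among them no intensity trend (0.156), and passed it with a minimum of 5 TPM (0.0451). With a library left out the difference was -1.26 to -0.98.

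Ikzf4 (chromosome 10, 128630843 to 128645991, minus strand, protein-coding) encodes Eos, a partner of Foxp3 in regulatory T cells. It was at 12.8 and 10.6 TPM in N, 16.9 and 18.1 in ACT, and 2.97 and 1.73 in ACT IL21. Its 3 pools did not overlap either, but here ACT IL21 was lowest, below N. The mean was 11.7 ± 1.53 TPM in N, 17.5 ± 0.863 in ACT and 2.35 ± 0.877 in ACT IL21 (SD, n = 2). Ikzf4 fell by 1.94 ± 0.36 SE on the log2 scale in ACT IL21 against N (limma adjusted p = 0.0214) and by 2.49 ± 0.36 in ACT IL21 against ACT (adjusted p = 0.016). The latter change was larger in size than that of 99.0% of the genes tested. The value of ACT against N was 0.55 (95% confidence interval -0.28 to 1.38, adjusted p = 0.486). The call against N ended without any single N or ACT IL21 library (adjusted p 0.0884 to 0.211), and the call against ACT with any of the 6 libraries left out (0.0783 to 0.145). At these low levels the added 1 TPM also makes the fold change smaller than the ratio of the levels.

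Ikzf5 (chromosome 7, 131388652 to 131410521, minus strand, protein-coding) encodes Pegasus, which binds a DNA sequence other than that of Ikaros. It was at 34.75 and 33.6 TPM in N, 44.8 and 25.3 in ACT, and 41.45 and 44.9 in ACT IL21. The ACT libraries lay on either side of N, and ACT overlapped both other pools. The 95% confidence intervals of the differences were -0.66 to 0.62 for ACT against N, -0.31 to 0.97 for ACT IL21 against N and -0.29 to 0.99 for ACT IL21 against ACT (limma adjusted p = 0.986, 0.602 and 0.622). All 3 intervals hold changes in both directions. The sign of its difference in ACT against N turned without N replicate 1 (0.006) or ACT replicate 2 (0.381), and in ACT IL21 against ACT without ACT replicate 2 (-0.053).

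**Figure D2:**
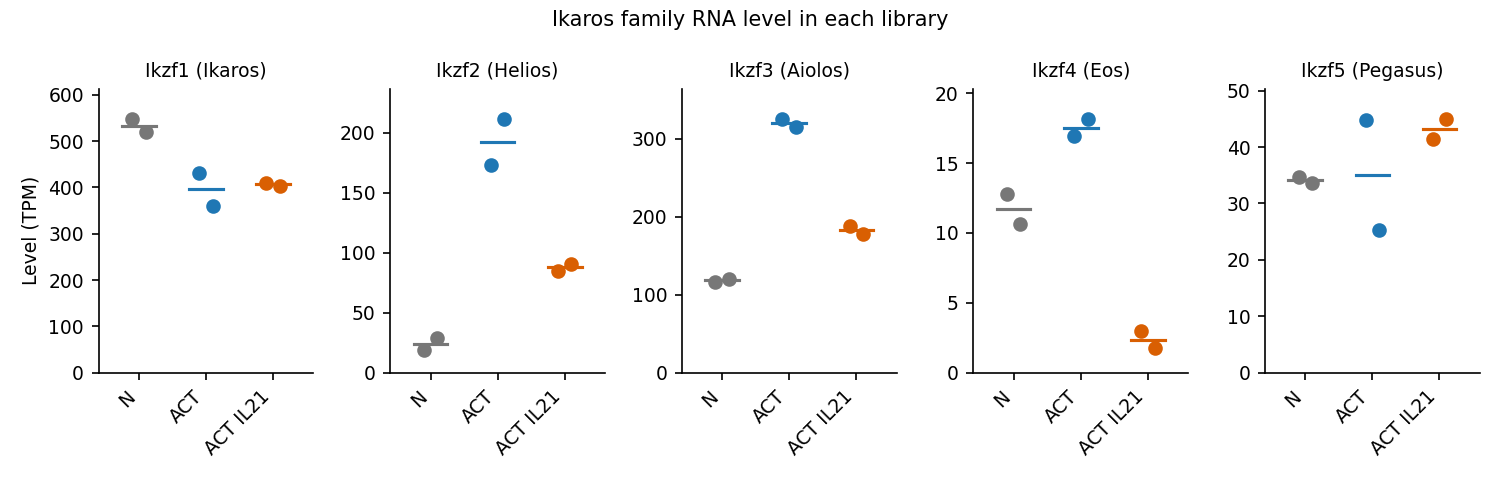
Level of each Ikaros family gene in TPM (vertical axis, from 0, a separate scale for each gene) in each library (points) of the N, ACT and ACT IL21 pools, with lines at the pool means. Ikzf2 and Ikzf3 are highest in ACT and lowest in N, Ikzf4 is lowest in ACT IL21, Ikzf1 is highest in N, and the ACT libraries of Ikzf5 lie far apart at 44.8 and 25.3 TPM.

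Counted over the family, 2 of 5 members passed in ACT against N, both higher (Ikzf2 and Ikzf3), where limma called 5.58% of all genes tested (4.15% higher, 1.43% lower). Against the same N libraries, 3 of 5 passed in ACT IL21, 2 higher and 1 lower, where 5.09% of all genes were called (3.82% higher, 1.26% lower). Between ACT IL21 and ACT, 2 of 5 passed, both lower (Ikzf3 and Ikzf4), where 1.95% of all genes were called (0.796% higher, 1.15% lower). All 5 members had passed the filter on low values. The comparisons of ACT and of ACT IL21 with N share the N libraries. Ikzf2 and Ikzf3 stood higher in both of these comparisons (2.98 and 1.87 for Ikzf2, 1.43 and 0.62 for Ikzf3). Ikzf4 stood at 0.55 and -1.94.

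**Figure D3:**
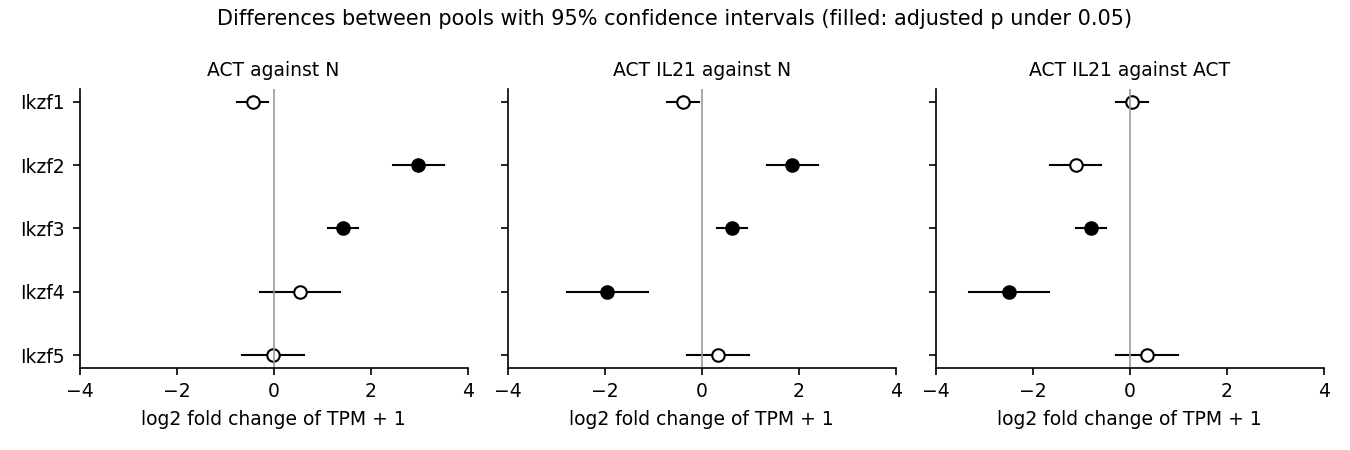
Difference between pools in log2(TPM + 1) for each Ikaros family gene (points) with 95% confidence intervals (lines), 1 panel for each comparison. Filled points passed an adjusted p of 0.05, which 2, 3 and 2 of the 5 genes did in the panels from left to right.

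**Figure D4:**
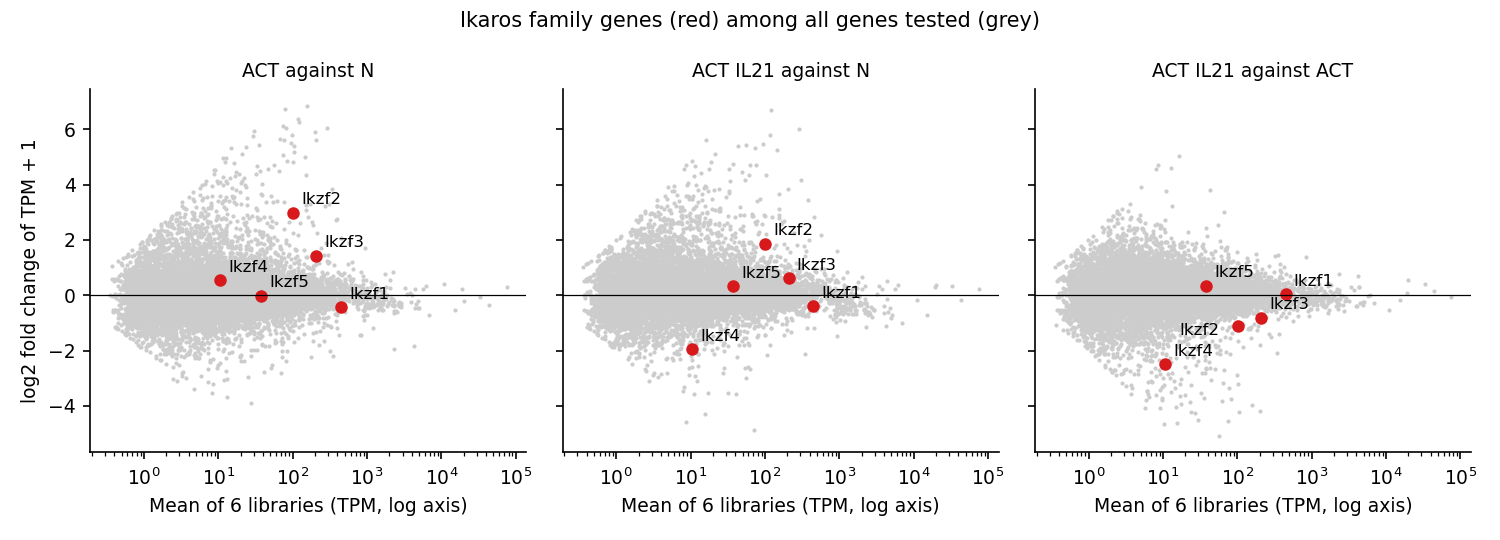
Log2 fold change (vertical axis) against the mean TPM of the 6 libraries (horizontal log axis) for the 13311 genes tested (grey) and the Ikaros family (red). Ikzf2 stands far above zero in ACT against N at 2.98 and Ikzf4 far below zero in ACT IL21 against ACT at -2.49, while Ikzf1 lies between -0.43 and 0.05 and Ikzf5 between -0.02 and 0.35 over the 3 panels.

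Helios and Eos, both regulatory T cell factors, differed in opposite directions from N in ACT IL21. The ratio of Ikzf2 to Ikzf4 was 1.47 and 2.71 in N, 10.3 and 11.7 in ACT, and 28.7 and 52.2 in ACT IL21, so that each ACT IL21 library exceeded all others. Foxp3, the lineage factor gene of regulatory T cells, was at 22.2 and 19.4 TPM in N, 65.4 and 51.9 in ACT, and 1.57 and 2.69 in ACT IL21. Il2ra, which encodes the interleukin-2 receptor alpha chain carried by these cells, was at 46.1 and 64.2 TPM in N, 124 and 125 in ACT, and 7.16 and 8.48 in ACT IL21. Like Ikzf4, both were lowest in ACT IL21, where Ikzf2 stayed above N. Ikzf2 reached 0.85 and 1.49 times the TPM of Foxp3 in N, 2.65 and 4.07 times in ACT, and 54.2 and 33.5 times in ACT IL21. For Ikzf4 this ratio was 0.58 and 0.55 in N, 0.26 and 0.35 in ACT, and 1.89 and 0.64 in ACT IL21, with the denominator near 2 TPM in the last pool.

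**Figure D5:**
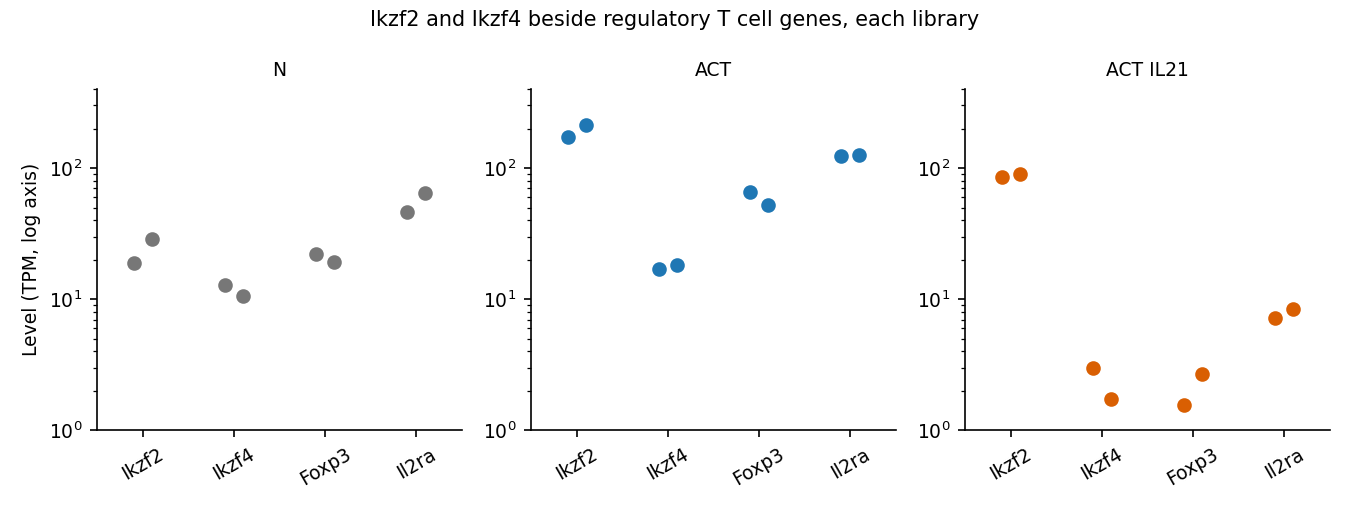
Level in TPM (vertical log axis) of Ikzf2, Ikzf4, Foxp3 and Il2ra in each library (points) of the N, ACT and ACT IL21 pools. In ACT IL21, Ikzf4 and Foxp3 lie under 3 TPM and Il2ra at 7.16 and 8.48, while Ikzf2 stays at 85.1 and 90.2 TPM.

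Beside Ikzf2 and Ikzf4, the marker list held 10 other regulatory T cell genes. Of these, 8 rose in ACT against N and none fell, with a median log2 fold change of 1.47 against 0.02 over all genes tested. Against N, ACT IL21 had 4 higher (Ctla4, Nrp1, Entpd1 and Capg) and 3 lower (Foxp3, Il2ra and Lrrc32), with a median of 0.62 against 0.10. Of these, Entpd1, Capg and Lrrc32 are named after their values were seen. In ACT IL21 against ACT 4 fell and none rose, with a median of -0.67 against 0.08. Limma called 5.58%, 5.09% and 1.95% of all genes tested in these comparisons, in the order given here. The list was chosen with results of these data known, and it is described here, not tested. With 1 library left out, the calls numbered 4 to 6 in ACT against N. They numbered 3 in ACT IL21 against N without any single N or ACT IL21 library, and 2 in ACT IL21 against ACT without any library but ACT IL21 replicate 1. Without that one limma called 0 of all genes, and 4 of the 10 had an unadjusted p under 0.05. Foxp3 stood 1.45 higher in ACT than in N on the log2 scale (limma adjusted p = 0.0367), a call that ended with any library left out (0.0518 to 0.3). In ACT IL21 it fell by 2.82 against N (adjusted p = 0.00251, and 0.0606 or 0.0513 without N replicate 1 or 2). Against ACT it fell by 4.27 (0.00212, and 0.0621 without ACT IL21 replicate 1). The summed TPM of the 10 genes was 253 to 254 in N, 828 to 849.5 in ACT and 482 to 516 in ACT IL21. Their part in the levels of Ikzf2 and Ikzf4 was not tested.

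The summed markers of innate-like cells were highest in ACT, as were Ikzf2 and Ikzf3, but not every single marker was. The 12 natural killer and NKT cell genes summed to between 63.2 and 71.9 TPM in N, 997 and 1116 in ACT, and 181 and 222.5 in ACT IL21. Of the 11 tested, 6 rose in ACT against N and none fell, where limma called 5.58% of all genes (median 2.34 against 0.02). In ACT IL21 against N, 2 rose and 2 fell (Klrd1 and Prf1), where 5.09% were called (median 0.55 against 0.10). In ACT IL21 against ACT, 7 fell, where 1.95% were called (median -2.34 against 0.08). With 1 library left out these calls numbered 4 to 7 in ACT against N, 2 to 4 in ACT IL21 against N (2 without either N library) and 3 or fewer in ACT IL21 against ACT. The count there was 0 by limma without ACT IL21 replicate 1 (8 at an unadjusted p under 0.05). Klrb1c, which encodes the NK1.1 antigen, was at 2.56 and 2.38 TPM in N, 166 and 177 in ACT, and 25.5 and 25.7 in ACT IL21. Prf1 of the same list was highest in N, at 7.27 and 7.93 TPM against 0.92 and 5.76 in ACT. The natural killer cell gene Ncr1 was listed at 0 in both ACT IL21 libraries, and Klre1 in both libraries of N and of ACT IL21. Of 4 gamma delta T cell genes in the table, 3 rose in ACT against N (5.58% of all genes called) and 2 in ACT IL21 against N (5.09%). In ACT IL21 against ACT, 3 fell (1.95% of all genes called). All of these calls fell on gamma constant segment genes (Tcrg-C1, Tcrg-C2 and Tcrg-C4). Sox13 was called in no comparison (1.16 in ACT against N, limma adjusted p = 0.498) and was at 3.97 and 0 TPM in ACT. Trdc of the same list was not in the table. The 4 genes summed to 9.79 to 13.6 TPM in N, 623 to 900.2 in ACT and 69.5 to 95.8 in ACT IL21. The 3 gamma delta calls held in ACT against N with each library left out, and the 3 in ACT IL21 against ACT dropped to 2 without any single N or ACT library. Limma called 0 there without either ACT IL21 library (3 at an unadjusted p under 0.05), and 1 of the 2 in ACT IL21 against N. The constant segment genes among them are similar in sequence, and their single values are uncertain. The part of such cells in the levels of Ikzf2 and Ikzf3 was not tested.

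Of genes of the chromatin complexes and of the cereblon ligase, none was called, and at the share of all genes called (5.58%, 5.09% and 1.95%) this does not set them apart. None of 18 genes of NuRD and other corepressor complexes passed limma in any comparison, with 4, 3 and 1 at an unadjusted p under 0.05 in ACT against N, ACT IL21 against N and ACT IL21 against ACT. Over all 13311 genes, 2471, 2485 and 1978 had such a p. The median log2 fold changes of the 18 were 0.06, 0.04 and -0.04, against 0.02, 0.10 and 0.08 over all genes tested. Hdac1, the deacetylase subunit gene and the most abundant of the list, was at 257 and 229 TPM in N, 332 and 324 in ACT, and 318 and 296 in ACT IL21. Its N libraries were lowest, and none of its differences passed. None of 7 genes of the cereblon ubiquitin ligase, through which thalidomide-type drugs remove Ikaros and Aiolos from human cells, passed limma either, with 0, 0 and 1 at an unadjusted p under 0.05. Their median changes were -0.10, 0.12 and 0.13.

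Of 21 partners and reported target genes of the family in CD4 T cells, 20 passed the filter on low values and were tested. In ACT against N 9 rose and 2 fell, with a median of 0.69 against 0.02 over all genes. The cytokine gene Ifng rose by 5.60 on the log2 scale (limma adjusted p = 0.00111) and Tbx21, the type 1 helper factor gene, by 4.39 (0.00178). Prdm1, which encodes the repressor Blimp-1, rose by 2.19 (0.00333, and 0.0529 or 0.0524 without N replicate 1 or 2). Tcf7, the gene of a factor of naive and follicular helper cells, fell by 1.45 (0.00166). Against N, 7 of the genes rose and 3 fell in ACT IL21, with a median of 0.45 against 0.10. Il7r, which encodes the interleukin-7 receptor chain, fell by 1.17 there (limma adjusted p = 0.00602, and 0.0744 to 0.107 without any single N or ACT IL21 library). Between ACT IL21 and ACT, 4 rose and 4 fell, with a median of 0.02 against 0.08. Over all genes tested, limma called 5.58%, 5.09% and 1.95% in these comparisons, in the order given here. Prdm1 was at 8.49 and 8.36 TPM in N, 38.6 and 45.9 in ACT, and 10.5 and 13.3 in ACT IL21, and like Ikzf3 it fell in ACT IL21 against ACT (-1.75, limma adjusted p = 0.0215). Bcl6, the follicular helper factor gene that Blimp-1 opposes, named here after its values were seen, was at 22.9 and 24.6 TPM in N, 24.0 and 19.9 in ACT, and 55.65 and 48.7 in ACT IL21. In ACT against N, where Ikzf3 rose, Bcl6 differed by -0.11 (limma adjusted p = 0.848). In ACT IL21 against N, Bcl6 stood 1.10 higher (0.0282) and Ikzf3 0.62 higher (0.0373). Bcl6 missed the threshold there under 1 of 9 alternative settings and Ikzf3 under 4. Any relation of Ikzf3 to Bcl6 or Prdm1 was not tested. The rise of Bcl6 in ACT IL21 against ACT was 1.21 (adjusted p = 0.0342), where Ikzf3 was lower. Both of these calls ended with any library left out (adjusted p 0.0794 to 0.175 for Prdm1, 0.0792 to 0.244 for Bcl6), and the list's calls numbered 3 to 7 in ACT against N, 2 without any single N or ACT IL21 library in ACT IL21 against N, and 0 to 5 in ACT IL21 against ACT. The 0 arose without ACT IL21 replicate 1, with 9 of the 20 at an unadjusted p under 0.05 by limma.

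For each member, the genes of most similar pattern were sought among 8523 genes of at least 5 TPM on average, by the root mean square difference between mean-centered log2(TPM + 1) profiles over the 6 libraries. The genes nearest to Ikzf3 were Akr1b10, an aldo-keto reductase gene (0.06), Lpar6, a lysophosphatidic acid receptor gene (0.07), and Ptger4, a prostaglandin E receptor gene (0.12). Lpar6 was at 44.7 and 47.5 TPM in N, 117 and 119 in ACT, and 72.8 and 61.6 in ACT IL21. It shares the order of Ikzf3 because it was picked for a similar pattern. Limma called it in ACT against N (adjusted p = 0.00344), but not in ACT IL21 against N (0.134) or against ACT (0.0588). By this measure, which is not scaled to the size of a gene's changes, Ikzf2 had no gene as near. Pearson correlations were 0.987 to 0.996 for the 3 genes nearest to Ikzf3 and 0.986 to 0.997 for those nearest to Ikzf2. The genes closest to Ikzf2 were Abcb1a, a drug efflux transporter gene (0.22), Chn2 (0.24) and Ifitm10 (0.24). Abcb1a was at 2.08 and 2.57 TPM in N, 33.5 and 33.0 in ACT, and 12.7 and 14.85 in ACT IL21. For Ikzf4 they were the protein kinase gene Prkd3 (0.23), the integrin chain gene Itgb3 (0.24) and Scamp1 (0.29). Itgb3 was at 69.9 and 56.75 TPM in N, 84.05 and 71.7 in ACT, and 17.5 and 17.4 in ACT IL21. That ACT IL21 was again lowest follows from the choice by pattern. Ikzf1 was nearest to the ribosomal protein gene Rpl21 (0.03), Polr3b (0.05) and the kinase gene Jak1 (0.06), and genes near to Ikzf5 included Shc1 (0.06) and Skiv2l (0.06).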

How the data were processed

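The authors deposited gene-level TPM for 6 libraries, 1 column each. Per the submitters' processing notes, Trimmomatic, Bowtie and RSEM were used with the build GRCm38. The sources used here do not give versions, annotation, read length or strand setting. Per the labels' protocols, polyadenylated RNA was amplified with the Nugen Ovation kit. TPM keep no depth, so no counting interval is given, and a rise in abundant transcripts lowers all other values. The table had 38355 entries, of which 139 repeated an earlier symbol and were added to it.

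The 13311 genes that reached 1 TPM in 2 or more libraries were fitted in 1 limma 3.58.1 model (R 4.3.3) on log2(TPM + 1), with a term for the pool and an intensity trend (3 residual and 4.841 prior degrees of freedom). Tests were two-sided, with Benjamini-Hochberg adjustment over all genes tested in each comparison and a threshold of 0.05. The fit was tested on simulated data. Positions and transcripts came from GENCODE M21 (GRCm38).

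The members and gene lists were chosen with earlier results of these data known. Named were all 5 members, the 3 nearest genes of each, and from each list up to 4 genes with the smallest p or, where none passed, the most abundant. A few items chosen by these rules are not reported here. Lists of other cell types are given mainly as sums and counts. Alternatives changed the pseudocount, filter, scaling, libraries, trend and replicate block.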

Additional observations from a re-analysis of the deposited data

How the results depend on the processing

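The calls of Ikzf2 and Ikzf3 in ACT against N held under all 9 alternatives and with each of the 6 libraries left out (2.69 to 3.28 and 1.41 to 1.45 on the log2 scale). In ACT IL21 against N, Ikzf2 ranged from 1.57 to 2.16, Ikzf3 from 0.59 to 0.66 and Ikzf4 from -2.21 to -1.68 with a library left out. Ikzf3 missed the threshold there without a filter on low values (0.62, adjusted p = 0.0515), with median-of-ratios scaling (0.52, 0.09), with quantile normalization (0.50, 0.0804) and without an intensity trend (0.62, 0.193), and Ikzf4 without a filter (-1.94, 0.0631). In ACT IL21 against ACT, Ikzf3 missed it with only the compared pools (-0.81, 0.0826) and without a trend (-0.81, 0.153), and Ikzf4 without a filter (-2.49, 0.0588) and with only the compared pools (-2.49, 0.0836). Left-out libraries gave -0.84 to -0.77 for Ikzf3 and -2.76 to -2.22 for Ikzf4 in this comparison. Ikzf2 passed there (-1.12) with a minimum of 5 TPM (adjusted p = 0.0451) and with a replicate block (0.0282). It missed the threshold under the other 7 of 9 alternatives, among them no intensity trend (0.156) and no filter (0.127). Left-out libraries gave -1.26 to -0.98 for it. Leaving out a library leaves 1 in its pool, which is then assumed to vary like the other pools. The causes of these changes were not tested.

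Signs turned for 5 differences that had not passed the threshold: Ikzf1 in ACT IL21 against ACT (-0.022 with median-of-ratios scaling, -0.083 to 0.177 with a library left out), Ikzf5 in ACT against N (-0.42 to 0.38) and in ACT IL21 against ACT (-0.053 to 0.745), Bcl6 in ACT against N (-0.243 to 0.017), and Tcf7 in ACT IL21 against N (0.20 with quantile normalization, -0.242 to 0.087). Quantile normalization shifted the median of all genes in ACT IL21 against N by -0.15, while Tcf7 moved upward there from -0.08. The cause of its change was not tested.

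Over all genes, ACT against N had 743 calls, 469 without a filter, 417 with only the compared pools and 205 to 526 with a library left out. ACT IL21 against N had 677 calls, 410 without a filter and 75 to 728 with a library left out. ACT IL21 against ACT had 259 calls, 124 without a filter, 92 with only the compared pools and 0 to 81 with a library left out (0 by limma without ACT IL21 replicate 1, 1631 at an unadjusted p under 0.05). Deviations of same-numbered libraries correlated across genes at 0.21 for N and ACT, -0.004 for N and ACT IL21, and 0.001 for ACT and ACT IL21. What same-numbered N and ACT libraries may share was not tested. A replicate block gave 784, 732 and 284 calls and, of the members, changed only the call of Ikzf2 in ACT IL21 against ACT. The unknown depth leaves the precision of Ikzf4, at 1.73 to 18.1 TPM, known only from 2 libraries per pool.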
